A study of Mus musculus with 12 samples.

Results

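The interleukin 6, interleukin 10 and interleukin 12 families are cytokines that macrophages release when they sense microbes. The genes described here are the 10 named members Il6, Lif and Osm (interleukin 6 family), Il10 and Il19 (interleukin 10 family), and Il12a, Il12b, Il23a, Il27 and Ebi3 (interleukin 12 family). They were chosen by gene symbol, out of 22180 genes with a row of their own, and all 10 were found. Ebi3 had a second row, and the row with the highest mean over the 12 arrays was used. Interleukin 6 drives fever and the acute-phase response through the shared receptor chain gp130, while leukemia inhibitory factor (Lif) and oncostatin M (Osm) use gp130 with other partner chains. Interleukin 10 limits inflammation through STAT3. Interleukin 12 family cytokines are heterodimers: p40 (Il12b) pairs with p35 (Il12a) to form interleukin 12 and with p19 (Il23a) to form interleukin 23, and the Ebi3 protein pairs with p28 (Il27) to form interleukin 27 and with p35 to form interleukin 35.

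Macrophages were grown from mouse bone marrow in L929-conditioned medium. Wild-type cells were compared with cells of Rasgef1b fl/fl mice that carry vav-iCre, which removes floxed sequence in blood-forming cells and their descendants. Each genotype received saline or R848, an agonist of the RNA sensor TLR7, for 4 h, although no time is given for saline. Each of the 4 groups had 3 arrays. No group carried Cre alone, and the sources used here give neither the mice's age, nor the littermate status of the wild type, nor the concentration of R848. No label ties a replicate to its own mouse or culture, and the spread behind each p-value may therefore be technical. Values are RMA log2 intensities, on which a difference of 1 is a doubling. The number of arrays limits the precision.

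Tests were run on genes above a dim limit on at least 3 arrays, the limit being the 40th percentile of the named rows on each array (4.31 to 4.35). The filter left 14079 genes and 8 of the 10 members. Il12a (0 arrays above the limit) and Il23a (2 arrays) were not tested. Il6 passed only through its 6 R848 arrays, so it had to differ between treatments, and counts over the tested members are descriptions only. All 8 macrophage markers, among them Csf1r and Adgre1, exceeded the limit on all 12 arrays, with list means between 10.41 and 10.75. Within groups, arrays had correlations of 0.9909 to 0.9964. Rasgef1b itself was lower on all 3 knockout arrays than on all 3 wild-type arrays in each treatment, by 0.71 ± 0.21 (SE) with saline and 0.65 ± 0.21 with R848 (limma adjusted p = 0.158 and 0.333), and by 0.68 averaged over treatments (adjusted p = 0.036, a call that ended in 10 of 19 other settings). Knockout replicate 2 was lowest with saline (7.88) and with R848 (8.60), and without that array the differences were -0.445 with saline and -0.385 with R848. Signal remained in the knockout, and since the sources used here do not name the deleted exon, that row checks the labels only in part.

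The start of a cytokine gene is where signal-driven factors such as NF-kB, AP-1 and C/EBP bind. The RefSeq promoter table (GRCm38.p6) held 6 of the 10 members: Il6, Il12a, Il12b, Il19, Ebi3 and Lif. The 250 bases before the start are shown for 3 genes with a large R848 response (Il6, Il12b and Ebi3) and for Lif, a row near the dim limit whose change did not pass the test. All 4 are on the plus strand, and capitals mark matches to the kappaB motif bound by NF-kB.
Il6, chr5:30012864-30013113: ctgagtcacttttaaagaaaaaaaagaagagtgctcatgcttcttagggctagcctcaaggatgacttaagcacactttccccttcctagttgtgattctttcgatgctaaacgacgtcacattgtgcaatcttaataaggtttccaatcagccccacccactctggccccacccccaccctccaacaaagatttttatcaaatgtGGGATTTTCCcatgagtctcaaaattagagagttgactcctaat
Il12b, chr11:44399813-44400062: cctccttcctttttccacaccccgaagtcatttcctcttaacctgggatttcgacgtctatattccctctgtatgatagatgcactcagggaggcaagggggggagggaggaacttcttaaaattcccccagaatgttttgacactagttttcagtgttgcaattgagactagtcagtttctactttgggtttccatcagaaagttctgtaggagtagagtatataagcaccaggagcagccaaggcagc
Ebi3, chr17:55952373-55952622: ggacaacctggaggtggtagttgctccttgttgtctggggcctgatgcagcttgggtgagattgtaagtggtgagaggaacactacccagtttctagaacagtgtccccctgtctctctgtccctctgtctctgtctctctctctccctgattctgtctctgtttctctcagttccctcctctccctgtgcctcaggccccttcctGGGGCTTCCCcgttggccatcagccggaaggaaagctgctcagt
Lif, chr11:4257318-4257567: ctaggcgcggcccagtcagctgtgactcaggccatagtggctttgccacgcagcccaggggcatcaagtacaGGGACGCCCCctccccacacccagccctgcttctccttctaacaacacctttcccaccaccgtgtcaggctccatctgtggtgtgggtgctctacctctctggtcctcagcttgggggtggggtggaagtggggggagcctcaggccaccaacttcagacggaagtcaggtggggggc
The kappaB match ended 35 bases before the start in both Il6 and Ebi3, and 169 bases before it in Lif. Il19, on chromosome 1, also had a match, and neither Il12b nor either start of Il12a had one in this window. Across the 32851 promoters of the table, 7.25% held a kappaB match on either strand in the same window. AP-1 (TGANTCA, in 6.75% of promoters) matched in Il6 and Lif, and C/EBP (TTGNNNAA, in 33.3%) in Il6 and Il19. A STAT motif (TTCNNNGAA, in 7.02%) and an ISRE core (GAAANNGAA, in 7.13%) matched in Il19 alone of the 6 genes, and TATAAA (in 12.4%) in none. Both strands were searched, and the C/EBP matches of Il19 on opposite strands overlapped. A match is a run of letters, not a measured binding site.

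**Figure D1:**
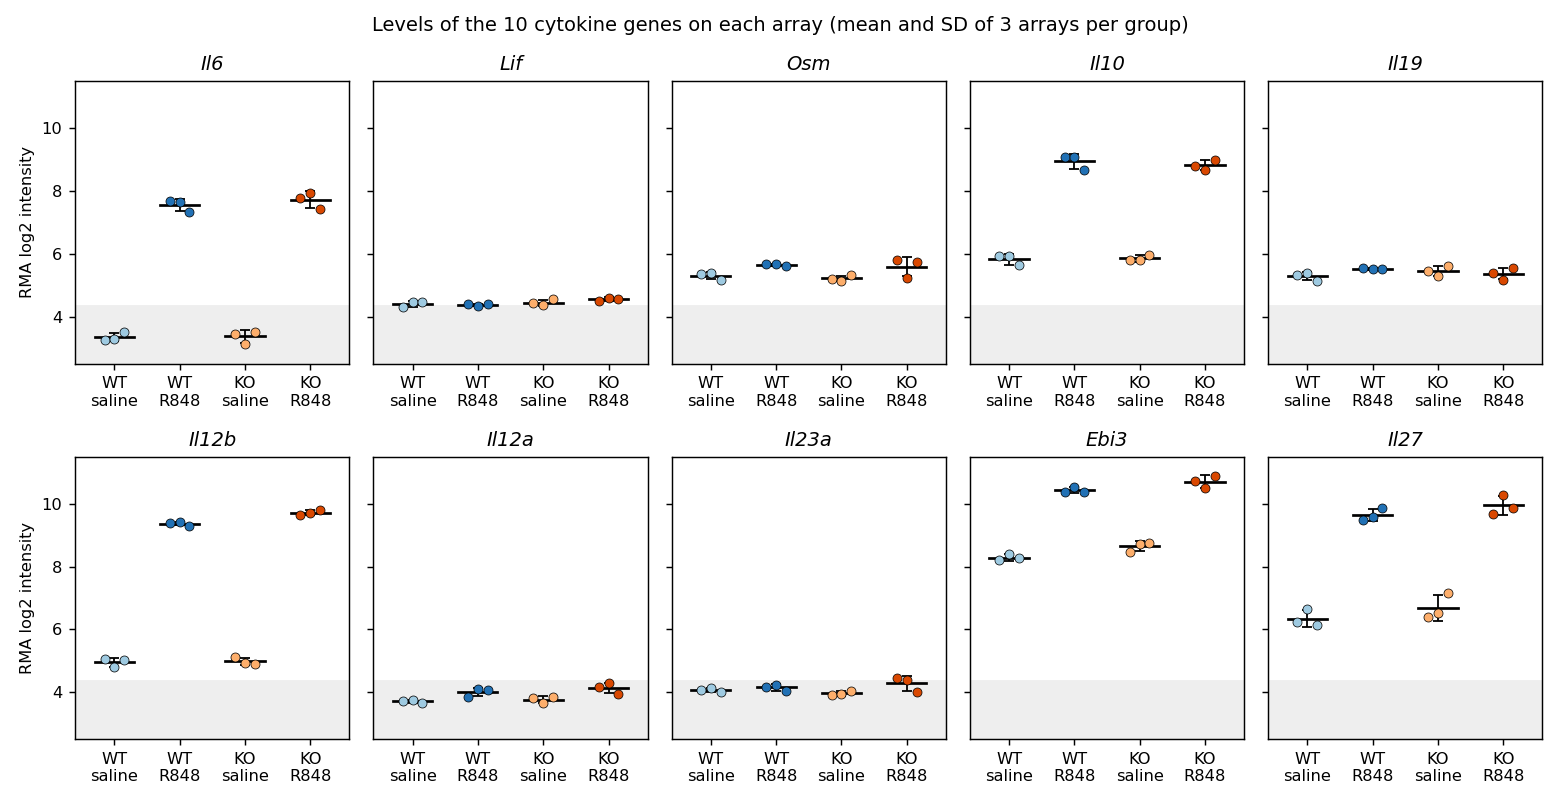
RMA log2 intensity of the 10 cytokine genes on each of the 12 arrays, with points for arrays and black bars for the mean and SD of 3 arrays per group (WT, wild type; KO, knockout), and grey marking values under the highest dim limit, 4.35. Il6, Il10, Il12b, Ebi3 and Il27 separate by treatment in both genotypes, while Il12a and Il23a stay at or near the grey zone.

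In the interleukin 6 family, Il6 responded strongly to R848, and the rows of Osm and Lif changed little. Il6 stood at 3.27, 3.30 and 3.50 on the wild-type saline arrays and at 7.69, 7.64 and 7.33 with R848. In knockout cells it stood at 3.46, 3.14 and 3.50 with saline and at 7.78, 7.95 and 7.44 with R848. All 6 saline arrays lay under the dim limit and all 6 R848 arrays far above it. With the dim limit in place of the saline values, Il6 was at least 9.38-fold higher with R848 in wild type and at least 10.5-fold higher in knockout. The measured differences were 4.20 and 4.36 (limma adjusted p = 7.35e-12 and 4.45e-12), which rest on a saline baseline that these arrays do not resolve.

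Osm, which acts on stromal cells, hepatocytes and osteoblasts, rose slightly. Its values were 5.35, 5.39 and 5.18 in wild-type saline cells and 5.67, 5.68 and 5.62 with R848, without overlap. Knockout cells gave 5.21, 5.13 and 5.31 with saline and 5.81, 5.23 and 5.74 with R848, where replicate 2 lay among the saline arrays. The change was 0.35 ± 0.12 (SE, limma adjusted p = 0.0352) in wild type and 0.38 ± 0.12 (adjusted p = 0.0227) in knockout, about 1.27-fold and 1.30-fold. The wild-type call ended without wild-type saline replicate 1 or 3 or any wild-type R848 array (0.29 to 0.37, adjusted p between 0.0543 and 0.13). The knockout call ended without knockout saline replicate 1 or 2 or knockout R848 replicate 1 or 3 (adjusted p between 0.0541 and 0.113), and with only the 6 knockout arrays in the fit (adjusted p = 0.0563).

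Lif, a factor for stem cell self-renewal and the neighbour of Osm on chromosome 11, was close to the dim limit in all 4 groups. It stood at 4.30, 4.45 and 4.46 in wild-type saline cells and at 4.40, 4.34 and 4.39 with R848, and at 4.43, 4.36 and 4.55 in knockout saline cells and 4.49, 4.60 and 4.57 with R848. The treatments overlapped in each genotype. The R848 change was -0.03 (95% interval -0.19 to 0.13, limma adjusted p = 0.827) in wild type and 0.11 (-0.05 to 0.27, adjusted p = 0.289) in knockout, which after median centring of the arrays became 0.25 (adjusted p = 0.0148). The promoters of Il6 and Lif both held a kappaB and an AP-1 match, and the part of these matches in the response was not tested.

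Il10 rose in both genotypes, and Il19, its neighbour on chromosome 1, did not pass the test in either. Il10 stood at 5.94, 5.92 and 5.63 in wild-type saline cells and at 9.09, 9.09 and 8.67 with R848. In knockout cells it stood at 5.79, 5.79 and 5.97 with saline and at 8.78, 8.68 and 9.0 with R848. No R848 array came near a saline array. The rise was 3.12 ± 0.12 (SE) in wild type (8.69-fold, 95% interval 7.23 to 10.5, limma adjusted p = 4.81e-11) and 2.97 ± 0.12 in knockout (7.84-fold, adjusted p = 7.55e-11).

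Il19, an interleukin 10 relative that signals through receptors containing the Il20rb chain, had values between 5.14 and 5.61 on all 12 arrays. In wild type the saline arrays read 5.31, 5.40 and 5.14 and the R848 arrays 5.54, 5.5 and 5.5, without overlap. In knockout the saline arrays read 5.44, 5.28 and 5.61 and the R848 arrays 5.39, 5.18 and 5.54, which overlapped. The change was 0.23 ± 0.10 (SE, limma adjusted p = 0.103) in wild type and -0.07 ± 0.10 (adjusted p = 0.623) in knockout. The wild-type value passed after median centring (0.36, adjusted p = 0.0104) and after cyclic loess (0.31, adjusted p = 0.0254). The difference between the 2 responses was -0.30 (95% interval -0.62 to 0.01, adjusted p = 0.986).

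Among the interleukin 12 family, Il12b had the largest measured R848 change in both genotypes. Il12b read 5.05, 4.79 and 5.02 in wild-type saline cells and 9.38, 9.43 and 9.31 with R848. Knockout cells read 5.11, 4.94 and 4.90 with saline and 9.65, 9.70 and 9.80 with R848. The saline arrays of the genotypes overlapped, while all 3 knockout R848 arrays lay above all 3 wild-type R848 arrays. The rise was 4.42 ± 0.09 (SE) in wild type (21.4-fold, 95% interval 18.8 to 24.4, limma adjusted p = 5.08e-14) and 4.73 ± 0.09 in knockout (26.6-fold, 23.4 to 30.3, adjusted p = 1.93e-14). The 250 bases before its start held no match to the kappaB pattern searched (GGGRNNYYCC, R being A or G, Y being C or T and N any base). Sites that depart from this pattern were not searched, so an NF-kB site there is not excluded.

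The partner subunits of p40 were dim. Il12a, encoding p35, read 3.71, 3.77 and 3.67 in wild-type saline cells and 3.85, 4.09 and 4.07 with R848. In knockout it read 3.81, 3.65 and 3.85 with saline and 4.17, 4.29 and 3.96 with R848. The treatments did not overlap in either genotype, yet every value lay under the dim limit. In a fit without the filter the differences were 0.29 (limma adjusted p = 0.0366) in wild type and 0.37 (adjusted p = 0.0074) in knockout.

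Il23a, encoding p19, read 4.07, 4.15 and 4.01 in wild-type saline cells and 4.17, 4.24 and 4.05 with R848. In knockout it read 3.90, 3.94 and 4.05 with saline and 4.45, 4.38 and 4.02 with R848. Knockout R848 replicates 1 and 2 were the 2 arrays above the dim limit, and replicate 3 lay among the saline arrays. Without the filter the differences were 0.08 (limma adjusted p = 0.702) and 0.32 (adjusted p = 0.0276). At these intensities a low level and background cannot be told apart.

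The subunits of interleukin 27, which acts on T cells and can induce interleukin 10 in them, both rose. Ebi3 read 8.20, 8.41 and 8.26 in wild-type saline cells and 10.37, 10.55 and 10.39 with R848. In knockout it read 8.46, 8.73 and 8.75 with saline and 10.73, 10.50 and 10.90 with R848. The rise was 2.15 ± 0.11 (SE) in wild type (4.43-fold, limma adjusted p = 7.25e-10) and 2.06 ± 0.11 in knockout (4.18-fold, adjusted p = 1.02e-09). A dim second row of Ebi3, with a mean of 4.45, differed by 0.53 and 0.77 in the same direction.

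Il27, encoding p28, read 6.24, 6.65 and 6.13 in wild-type saline cells and 9.50, 9.59 and 9.87 with R848. In knockout it read 6.39, 6.52 and 7.16 with saline and 9.69, 10.29 and 9.88 with R848. Its spread was the widest of the members in knockout saline cells (SD 0.41), where replicate 3 was highest. The rise was 3.31 ± 0.20 (SE) in wild type (9.94-fold, limma adjusted p = 4.14e-09) and 3.26 ± 0.20 in knockout (9.60-fold, adjusted p = 4.47e-09).

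**Figure D2:**
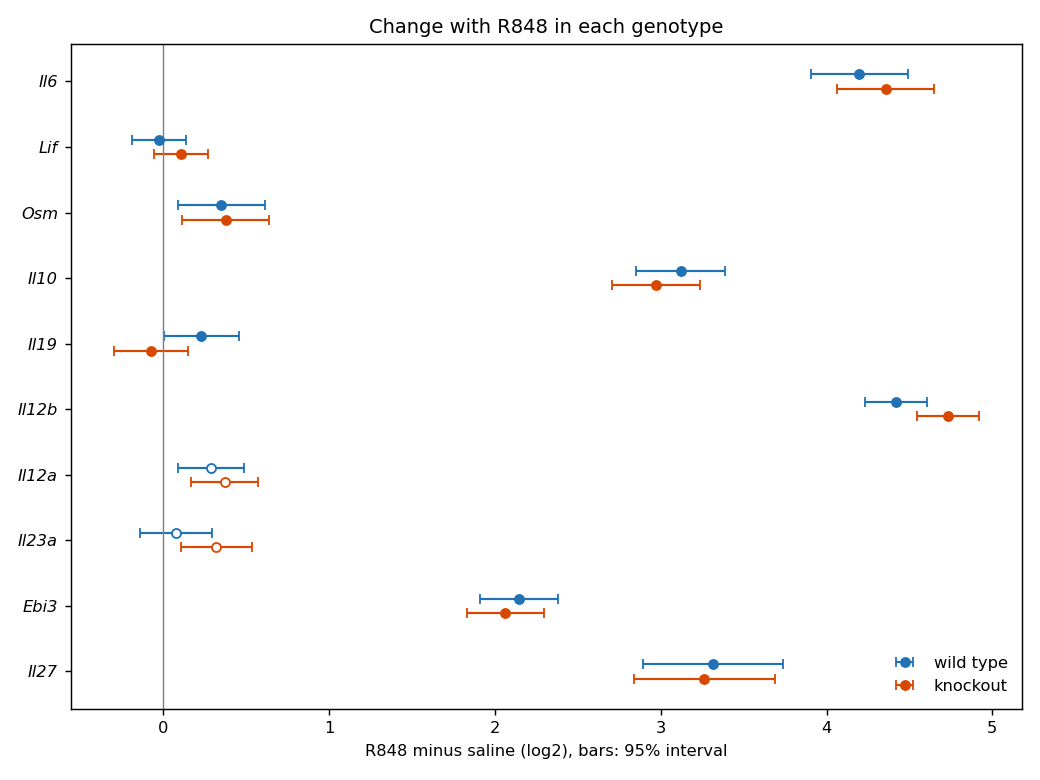
Change with R848 (R848 minus saline, log2) of each member in wild-type and knockout cells, with 95% intervals from the limma fit of 12 arrays. Open symbols are the 2 members under the filter, from a fit without it. The change of Il6 is measured from saline values under the dim limit. Il12b and Il6 lie above 4, Il27 and Il10 near 3, Ebi3 near 2 and the other 5 members under 0.5.

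Of the 8 tested members, 6 were higher with R848 in wild type and 0 lower, where 14.6% of all tested genes were higher and 23.6% lower. The same 6 genes, Il6, Il10, Il12b, Il27, Ebi3 and Osm, were higher in knockout, where 15.6% of all tested genes were higher and 26.0% lower. Il6 passed the filter only through its R848 arrays, so counts and medians that include it are descriptions only. The median change of the tested members was 2.63 in wild type and 2.52 in knockout, against -0.02 and -0.03 over all tested genes. Rescaling moved the split over all genes: 2062 were higher and 3325 lower in wild type, and 2193 and 3665 in knockout, while after median centring higher genes made up 62.2% and 63.6% of those called and after cyclic loess 48.5% and 49.4%. Ordered by size in wild type, the changes of the rows used ran from Il12b (4.42) through Il27 (3.31), Il10 (3.12) and Ebi3 (2.15) to Osm (0.35). Il19 and Lif were last. Il6, known only as at least 3.23 on this scale, was given no place. The 95% intervals of Il27 (2.89 to 3.74) and Il10 (2.85 to 3.39) overlapped. Those of Il12b (4.23 to 4.61) and Il27, of Il10 and Ebi3 (1.91 to 2.38), and of Ebi3 and Osm (0.09 to 0.61) did not. Both R848 comparisons use the same fit and 1 spread per gene.

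Whether the rows of the 2 subunits of a heterodimer changed by the same amount was tested on their difference within each array. Of the 4 pairs computed, only Ebi3 and Il27 were both above the dim limit on all 12 arrays. The row of Ebi3 rose less than that of Il27. The difference of their changes was -1.18 on the log2 scale, averaged over the genotypes (-1.17 in wild type and -1.20 in knockout). The exact two-sided permutation p, with treatments permuted within each genotype, was 0.005, the smallest that the 400 arrangements can give, and 0.005 after Benjamini-Hochberg adjustment over the 4 pairs. The within-array difference of Ebi3 and Il27 lay between 1.59 and 2.21 on the 6 saline arrays and between 0.21 and 1.04 on the 6 R848 arrays. The dim second row of Ebi3 changed by 0.53 in wild type and 0.77 in knockout, so the size of a change depends on the row. The test therefore compares 2 rows and does not show that Ebi3 mRNA rose less than Il27 mRNA. The other 3 pairs hold Il12a or Il23a, whose levels these arrays do not resolve, so no difference between those subunits is given.

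The genotype question is whether loss of Rasgef1b changes these cytokines, and no member passed the threshold with either treatment. With saline, 0 of 8 tested members were called by limma (1 at an unadjusted p under 0.05), where 0.334% of all tested genes were called. With R848, 0 of 8 were called (3 at an unadjusted p under 0.05: Il12b, Ebi3 and Lif), against 0.135% of all tested genes. The median difference of the tested members was 0.04 with saline and 0.17 with R848, against -0.01 and -0.02 over all tested genes.

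Il12b had the largest difference with R848, at 0.34 ± 0.09 (SE, 95% interval 0.16 to 0.53, limma adjusted p = 0.215). Its knockout mean was 9.72 ± 0.08 (SD, n = 3) and its wild-type mean 9.37 ± 0.06 (n = 3), and the groups did not overlap. With saline the difference was 0.03 (-0.16 to 0.22). The difference with R848 had adjusted p between 0.113 and 0.244 under other processing and between 0.187 and 0.521 with 1 array left out. Lif also did not overlap with R848, at 4.55 ± 0.06 (SD, n = 3) against 4.38 ± 0.03 (n = 3), a difference of 0.18 (0.02 to 0.34, adjusted p = 0.525). These are 2 of 8 tested members without overlap, where 13.8% of all tested genes had none.

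Ebi3 had the smallest adjusted p of the tested members for the average genotype difference. With saline all 3 knockout arrays lay above all 3 wild-type arrays, at 8.65 ± 0.16 (SD, n = 3) against 8.29 ± 0.11 (n = 3), a difference of 0.36 (95% interval 0.12 to 0.59, limma adjusted p = 0.166). It was the only 1 of 8 tested members whose saline groups did not overlap, where 16.1% of all tested genes had none. With R848 the difference was 0.27 (0.04 to 0.51, adjusted p = 0.478), and wild-type replicate 2 (10.55) exceeded knockout replicate 2 (10.50). Without knockout R848 replicate 3 it was 0.18. The average of both treatments was 0.32 ± 0.08 (SE, adjusted p = 0.0546), which missed the threshold. Its adjusted p was 0.0371 with a trended, robust spread, 0.045 with a stricter filter, 0.0313 with median centring, 0.0284 with cyclic loess and 0.0424 with the replicate block. It was 0.0703 without the filter and 0.0991 where same-numbered arrays of a genotype were treated as correlated. With 1 array left out the averaged difference lay between 0.27 and 0.37 (adjusted p between 0.0431 and 0.119). The second row of Ebi3 differed by 0.14.

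Il27, the partner of Ebi3, was 0.35 higher with saline (95% interval -0.07 to 0.77) and 0.30 higher with R848 (-0.12 to 0.72), with overlapping groups in both. Without knockout saline replicate 3 the saline difference was 0.115 and the average 0.21, and without knockout R848 replicate 2 the R848 difference was 0.13. Its average over both treatments was 0.33 ± 0.14 (SE, limma adjusted p = 0.261), and Il12b 0.19 ± 0.06 (adjusted p = 0.146). For the average, 0 of 8 tested members were called (3 at an unadjusted p under 0.05: Ebi3, Il12b and Il27), against 1.78% of all tested genes. Il6 differed by 0.17 (-0.12 to 0.46) with R848, and its saline arrays of both genotypes were under the dim limit. Il10 differed by 0.02 (-0.25 to 0.29) and -0.13 (-0.40 to 0.14). For Il10, Osm and Il19 the intervals in each treatment lay between -0.40 and 0.38, so a genotype difference of 0.5 or more lay outside them. The largest interval bound among all tested members was that of Il27 with saline.

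**Figure D3:**
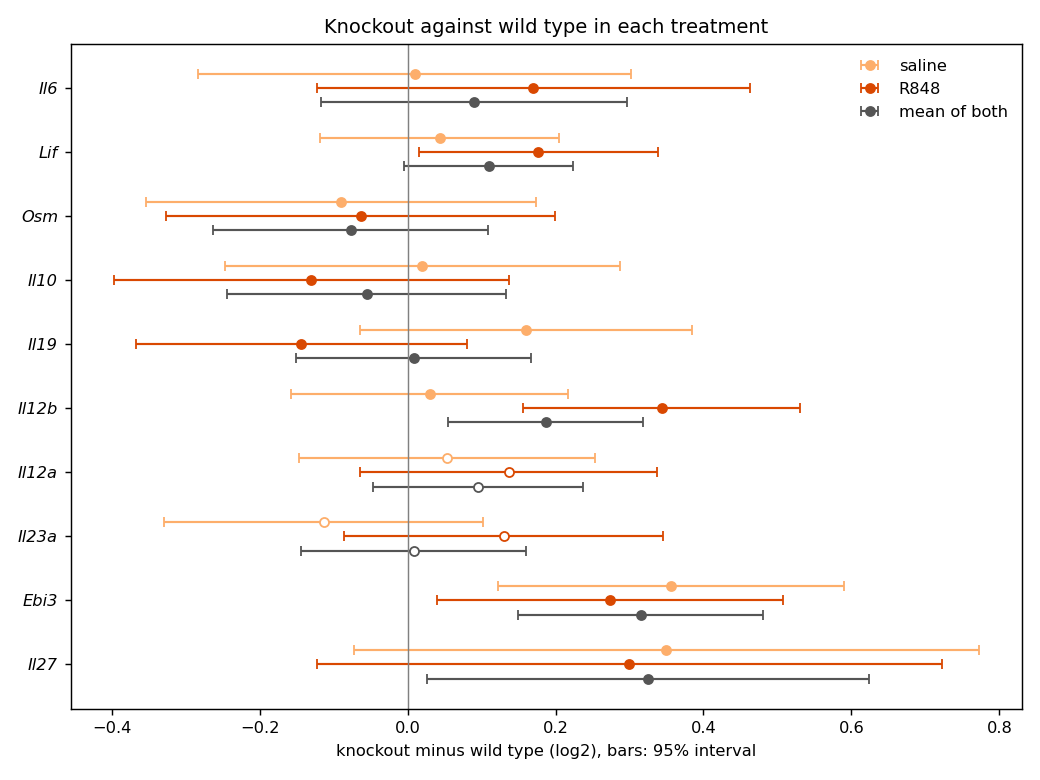
Knockout minus wild type (log2) for each member with saline, with R848 and averaged over both, with 95% intervals from the limma fit of 12 arrays; open symbols are the 2 members under the filter, from a fit without it. Most intervals include 0; those of Ebi3 in all 3 comparisons, of Il12b with R848 and averaged, of Lif with R848 and of Il27 averaged do not, before adjustment over all genes.

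The interaction asks whether the R848 response itself differed between genotypes. It was called for 0 of 8 tested members by limma (1 at an unadjusted p under 0.05), against 0.0142% of all tested genes. The values ran from -0.30 in Il19 to 0.31 ± 0.12 (SE) in Il12b (95% interval 0.05 to 0.58, adjusted p = 0.965). That of Il10 was -0.15 (-0.53 to 0.23) and that of Ebi3 -0.08 (-0.41 to 0.25). That of Il27 was -0.05 (-0.65 to 0.55), an interval that holds 0.5. In simulated data, 200 of 14079 genes were changed by 0.5 in the knockout R848 group. The interaction recovered 25% of them, and knockout against wild type with R848 recovered 82%. In bulk RNA a change in the share of cells that make a cytokine and a change in the amount per cell cannot be told apart.

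Cell type markers were set beside these differences. The mean of the 8 macrophage markers lay between 10.67 and 10.75 in knockout saline cells and between 10.55 and 10.65 in wild-type saline cells. These ranges did not overlap, where 16.1% of all tested genes had no overlap with saline. With R848 the mean lay between 10.45 and 10.50 in knockout and between 10.41 and 10.45 in wild type. The mean of the 8 dendritic cell markers with a row lay between 5.45 and 5.54 in knockout saline cells and 5.27 and 5.53 in wild type, and between 5.43 and 5.60 and 5.41 and 5.53 with R848. Of these 8, Flt3, Itgax, Cd209a, Ccr7 and Xcr1 were above the dim limit on all 12 arrays, and Zbtb46 and Dpp4 on 0. The mean of the 8 neutrophil and precursor markers was 4.02 to 4.06 in knockout R848 cells and 3.90 to 4.0 in wild-type R848 cells. These ranges did not overlap, but both lay under the dim limit. With R848, 13.8% of all tested genes had no overlap between the genotypes. Of these 8, S100a9, Elane and Cxcr2 were above the dim limit on all 12 arrays, and Ly6g, S100a8, Mpo and Camp on 0. S100a9 was 5.19 in knockout R848 cells and 4.72 in wild-type R848 cells, which did not pass (limma adjusted p = 0.0866, under 0.05 in 2 of 19 other settings). Cxcr2 (4.64 against 4.55), S100a8 (3.77 against 3.66) and Mpo (3.98 against 3.95) were also higher in knockout R848 cells. Elane (4.43 against 4.47), Camp (3.05 against 3.10) and Ngp (4.11 against 4.14) were lower, and Ly6g was 3.11 in both. Averaged over treatments S100a9 was 0.295 higher in knockout (limma adjusted p = 0.0375, a call that ended in 11 of 18 other settings). Of the other lists, Ms4a1, Cd79a and Pax5 of B cells and Cd3e, Cd3d, Cd3g and Cd8a of T cells were under the dim limit on all arrays. So were Cpa3, Fcer1a and Ms4a2 of mast cells, and Pdgfra and Dcn of fibroblasts. Cd79b (B cells), Cd4 (T cells), Nkg7 (NK cells), and Col1a1, Col1a2 and Col3a1 (fibroblasts) were above it on all 12 arrays, and the mast cell and basophil gene Mcpt8 on 6. Klf1, the only erythroid marker with a row, was under the dim limit on all arrays. With saline it lay between 3.92 and 4.0 in knockout and between 4.01 and 4.08 in wild type, without overlap. The part of these markers in the genotype differences was not tested.

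No other ligand of the 3 families passed the test with R848. With R848, 14.6% of all tested genes were higher and 23.6% lower in wild type, and 15.6% and 26.0% in knockout. The ligand list and the lists below were chosen with earlier results of these data known, so their counts are descriptions only. Of 9 listed ligands, 7 had a row and 3 were tested, Clcf1, Ctf1 and Il24, and 0 of 3 were called in either genotype. Their wild-type changes were 0.20, 0.07 and 0.04 (limma adjusted p = 0.177, 0.559 and 0.769), and after median centring 1 of 3 was higher in wild type and 3 of 3 in knockout. Il20, a neighbour of Il19 in the Il10 cluster on chromosome 1, did not exceed 3.62 on any array, Il11 did not exceed 3.70 and Il22 did not exceed 2.35.

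The 3 receptor chains that changed most, Il6ra, Lifr and Il6st, were lower with R848 in both genotypes. Il6ra, the interleukin 6 binding chain, went from 9.10 to 7.28 with R848 in wild type, a change of -1.82 ± 0.14 (SE, limma adjusted p = 5.24e-08). Il6st, which encodes gp130, fell from 9.53 to 8.04 (adjusted p = 6e-08), and Lifr, which pairs with gp130, from 6.71 to 5.14 (adjusted p = 1.27e-08). In knockout the 3 changes were -2.04, -1.69 and -1.97. Il20rb, a chain of the receptors for Il19, rose by 0.99 in wild type and 1.06 in knockout. In all, 2 of 9 tested chains were higher and 5 lower in wild type, and 2 higher and 4 lower in knockout, with medians of -0.20 and -0.15. The shares over all tested genes were 14.6% higher and 23.6% lower in wild type, and 15.6% and 26.0% in knockout. After median centring the counts of chains were 2 higher and 3 lower, and 3 higher and 3 lower. Il10ra, the ligand-binding chain for interleukin 10, was the only chain called by genotype, at 0.26 averaged over treatments (adjusted p = 0.0452), a call that ended in 14 of 19 other settings, and it was named after its value was seen. Il12rb1, Il23r and Osmr did not exceed 4.08, 3.64 and 4.0 on any array and were not tested.

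Downstream of the receptors, JAK kinases phosphorylate STAT factors and SOCS proteins feed back on them. Of 15 tested JAK-STAT genes, 10 were higher and 2 lower with R848 in each genotype, with medians of 0.60 and 0.72. Over all tested genes the shares were 14.6% higher and 23.6% lower in wild type, and 15.6% and 26.0% in knockout. Socs3, the inhibitor of gp130 signalling, rose from 4.74 to 9.38 in wild-type cells, and in knockout cells from 4.52 to 9.31. Jak2 rose by 2.84 and 2.94, Stat5a by 1.86 and 1.73 and Socs1 by 1.63 and 1.47. By genotype, Stat2 alone was called, at 0.62 ± 0.09 (SE) with saline (limma adjusted p = 0.0107, and lost in 3 other settings, with adjusted p up to 0.0755) and 0.51 averaged over treatments (adjusted p = 0.0023). It was named after its value was seen, and in the RefSeq gene order it lies next to Il23a on chromosome 10.

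Genes known to respond to interleukin 10 or STAT3 mostly rose with R848. Of 10 tested, 9 were higher and 0 lower in wild type, and 9 higher and 1 lower in knockout, with medians of 1.92 and 1.93. Among all tested genes, 14.6% were higher and 23.6% lower in wild type, and 15.6% and 26.0% in knockout. Since the list was chosen with earlier results of these data known, its counts are descriptions only. Besides Socs3, Bcl3, an atypical IkB protein, rose by 3.15 in wild type and 3.01 in knockout, the kinase gene Pim1 by 2.60 and 2.85, and the interleukin 4 receptor gene Il4ra by 2.58 and 2.29. The exception was Hmox1, heme oxygenase 1, which changed by -0.08 (limma adjusted p = 0.625) in wild type and fell by 0.41 (adjusted p = 0.007) in knockout. Hmox1 was named after its value was seen, and the knockout call ended in 1 other setting.

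**Figure D4:**
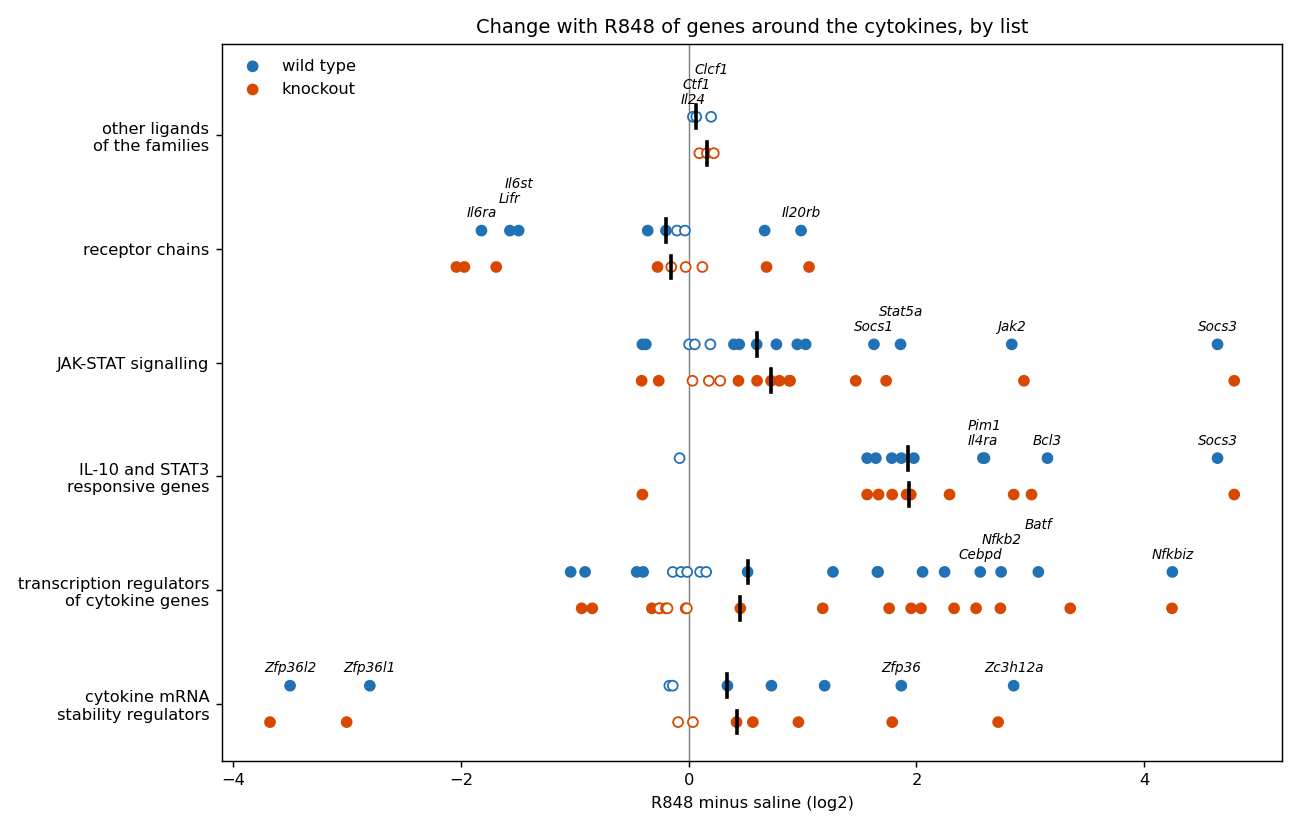
Change with R848 (R848 minus saline, log2) of the tested genes of 6 lists in wild type (upper row of each list) and knockout (lower row); filled symbols passed an adjusted p of 0.05, and black bars are medians. Socs3 and Nfkbiz lie above 4, while Il6ra, Lifr, Il6st, Zfp36l1 and Zfp36l2 lie below -1 in both genotypes.

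Transcription regulators of cytokine genes had 10 of 19 tested members higher and 4 lower in wild type, and 10 higher and 3 lower in knockout. Their medians were 0.52 and 0.45. The shares over all tested genes were again 14.6% higher and 23.6% lower in wild type, and 15.6% and 26.0% in knockout. Nfkbiz, which encodes the nuclear protein IkB-zeta, rose from 6.56 to 10.81 in wild-type cells, and in knockout cells from 6.64 to 10.89. Batf rose by 3.07 and 3.35, Nfkb2 by 2.74 in both and Cebpd, of the C/EBP family, by 2.56 and 2.52. Among 9 regulators of cytokine mRNA stability, 5 were higher and 2 lower in each genotype, beside the same shares over all tested genes. Zc3h12a, whose product Regnase-1 degrades Il6 and Il12b mRNA, rose by 2.85 and 2.72, and Zfp36, encoding the mRNA decay factor tristetraprolin, by 1.87 and 1.79. Its relatives Zfp36l2 and Zfp36l1 changed by -3.50 and -2.80 in wild type and by -3.68 and -3.00 in knockout. Hnrnpd was lower in knockout averaged over treatments, at -0.28 (limma adjusted p = 0.0284), a call that ended in 9 of 19 other settings, and it was named after its value was seen. No gene of the transcription regulator list was called by genotype in this fit. With the replicate block, Irf1 (0.22, adjusted p = 0.0389) and Nfkbid (-0.33, adjusted p = 0.0115) passed averaged over treatments, and both were named after their values were seen. Nfkbid also passed with the stricter filter (limma adjusted p = 0.0471) and without wild-type saline replicate 3 (limma adjusted p = 0.0482).

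The genes whose pattern over the 12 arrays was most like that of 3 members were found by the root mean square difference after centring each gene on its own mean. For Il6 these were Nfkbiz (0.12), Cd40 (0.24) and Ccl5 (0.25), in log2 units. For Il12b they were Lcn2 (0.21), Nfkbiz (0.23) and Ccl5 (0.23), and for Il10 Tnip1 (0.13), Tnfsf9 (0.17) and Zc3h12a (0.17). Among the members themselves, Il6 and Il12b were 0.24 apart, Il10 and Il27 0.37, and Il10 and Ebi3 0.52. All these genes share the treatment contrast over the same 12 arrays. The saline values of Il6 lay under the dim limit, so its distances to other genes, Il12b among them, rest on an unresolved change.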

How the data were processed

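RNA of 12 macrophage samples was hybridized to Affymetrix Mouse Gene 2.1 ST arrays. The authors deposited log2 values made with Affymetrix Expression Console and RMA (background correction, quantile normalization and probe summary), per the submitters' processing notes (versions and settings: not given in the sources used here). Quantile normalization hides a change in total RNA per cell. Scan dates and strips are not used here, and any batch aligned with the groups cannot be told apart from them. Values ran from 2.15 to 12.85, with array medians between 4.49 and 4.57. Of 34472 rows, 23521 had 1 gene symbol, 1814 several and 9137 none, per GEO's platform table; 23328 matched a RefSeq gene by Entrez number.

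Genes with a value above the 40th percentile on at least 3 arrays were fitted across all genes with limma 3.58.1 (R 4.3.3, lmFit and eBayes, a mean per group, no covariate), with Benjamini-Hochberg adjustment within each contrast and a threshold of 0.05; adjusted p-values for genes are limma's. Subunit differences used exact permutation tests (Python 3.11.15). The fitting code was checked on simulated data, 200 of 14079 genes being changed. Residuals of knockout saline and knockout R848 arrays of the same number correlated at 0.27, 0.17 and 0.28 for numbers 1, 2 and 3, above 0.1 each. This pairing is read from the data, since the labels give none, and no other pair of groups met this. Named genes are the 10 members, Rasgef1b, up to 4 genes per list with the largest wild-type R848 change (those past the threshold first), and the 3 genes most like Il6, Il10 and Il12b, gene-model names left out. The members and lists were chosen with earlier results of these data known. Alternatives were other spread models, filters, scalings, replicate blocks, smaller sets of arrays, leaving out each array and the second row of Ebi3.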

Additional observations from a re-analysis of the deposited data

How the results depend on the processing

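Across the alternatives, 0 of the results reversed direction past the threshold. The calls of Il10, Il12b, Il27 and Ebi3 with R848 held in every fit run for each genotype. That of Il6 held as well, but Il6 passed the filter only through its R848 arrays, so its call was no test of robustness. The count of members higher with R848 was 6 in each genotype and lay between 5 and 7 in wild type and 5 and 8 in knockout, Osm being the member lost and Il19, Lif, Il12a or Il23a those gained. Averaged over treatments, the count of members higher in knockout was 0 and became 1, Ebi3 each time, with an intensity trend and robust spread, a stricter filter, median centring, cyclic loess and the replicate block (adjusted p = 0.0424 for Ebi3), and lay between 0 and 1 with 1 array left out, being 1 without knockout saline replicate 1 or knockout R848 replicate 2. The block changed no other call of a member. The difference between the responses of the Ebi3 and Il27 rows lay between -1.28 and -1.05 under both scalings and with each array left out. Median centring moved the median R848 change of all genes to 0.11 in wild type (from -0.02) and 0.12 in knockout (from -0.03). The number of genes called by genotype, 47 with saline and 19 with R848, ranged from 8 to 99 (99 with the replicate block) and from 13 to 27, and the 251 averaged over treatments from 73 to 402; the cause was not tested. Under the dim limit, signal over background sets what can be seen of Il12a, Il23a and saline Il6.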
